A study of Mus musculus with 4 samples.

Results

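A set of 8 genes of cholesterol synthesis and its feedback control, *Hmgcs1*, *Sqle*, *Idi1*, *Fdps*, *Fdft1*, *Insig1*, *Lss* and *Cyp51*, was followed in mouse mammary gland organoids. They were taken by symbol, 8 of the 32285 genes listed, and each symbol was found once in both gene expression matrices. *Insig1* encodes a regulator and the other genes encode enzymes, so the set holds no gene of cholesterol uptake. The organoids came from mammary fat pads, freed of lymph nodes, of virgin mice aged 8 to 9 weeks, and were grown under 4 conditions called COL1 (collagen), STIFF, MATR (Matrigel) and SOFT. No mouse strain, number of animals, time in culture or stiffness value is given in the sources used here. Dissociated cells of each culture carried an antibody hashtag; COL1 and STIFF cells shared 1 droplet channel, and MATR and SOFT cells shared the other.

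Each condition was a single culture, so no difference between conditions could be tested. Intervals below are exact 95% intervals that cover counting error only. COL1 and MATR lay in different channels, as did STIFF and SOFT, so for those pairs the culture and its channel cannot be told apart. The pairing of hashtag and condition came only from the names of the deposited matrices. The 4 cultures gave 1563 (COL1), 2451 (STIFF), 2333 (MATR) and 1941 (SOFT) cells with a single hashtag, with median depths of 11353, 16843, 14722 and 15233 transcript counts (unique molecular identifiers, UMIs). In the COL1 and STIFF pool 54.9% of the kept cells carried no callable hashtag, and in the MATR and SOFT pool 42.7%. The pools shared 22 cell barcodes, 19 of them kept. Levels are given as CPM, the share of a gene among the summed UMIs of a group of cells on the usual per-million scale.

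Cells build cholesterol from acetyl-CoA through mevalonate, isoprenoid units, squalene and lanosterol. When sterol in the endoplasmic reticulum runs low, the transcription factor SREBP2, escorted by SCAP, leaves for the Golgi, is cleaved there and switches on the enzymes of the path together with genes of cholesterol uptake. INSIG proteins hold SCAP back when sterol is plentiful, and *Insig1* is itself an SREBP target, which closes the loop. In the mammary gland the related factor SREBP1 serves fatty acid synthesis for milk fat, and cholesterol is a component of the milk fat globule membrane.

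SREBP binds a sterol regulatory element (SRE) beside sites for the factors NF-Y and Sp1, so the members' proximal promoters are printed for the letters they hold. RefSeq promoters of build GRCm38.p6 were matched for 5 of the 8 members; *Sqle*, *Fdps* and *Fdft1* are named only. Each window holds the 250 bases before the annotated start, 5′ to 3′ on the gene's strand, and capitals mark an SRE searched as TCACNCCAC or an NF-Y box searched as CCAAT, on either strand. The windows lie at chr13:119690101-119690350 on the plus strand (*Hmgcs1*), chr13:8885356-8885605 plus (*Idi1*), chr5:28071162-28071411 plus (*Insig1*), chr10:76531355-76531604 plus (*Lss*) and chr5:4104698-4104947 minus (*Cyp51*).
Hmgcs1: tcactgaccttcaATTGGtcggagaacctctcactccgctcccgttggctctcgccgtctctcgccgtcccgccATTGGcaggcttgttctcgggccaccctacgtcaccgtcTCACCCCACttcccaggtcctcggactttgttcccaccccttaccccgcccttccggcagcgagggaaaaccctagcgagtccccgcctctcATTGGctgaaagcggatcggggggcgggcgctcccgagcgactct
Idi1: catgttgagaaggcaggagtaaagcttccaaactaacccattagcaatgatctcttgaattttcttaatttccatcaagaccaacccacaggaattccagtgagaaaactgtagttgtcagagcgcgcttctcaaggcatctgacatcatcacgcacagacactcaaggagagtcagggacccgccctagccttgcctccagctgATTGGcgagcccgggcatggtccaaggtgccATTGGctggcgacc
Insig1: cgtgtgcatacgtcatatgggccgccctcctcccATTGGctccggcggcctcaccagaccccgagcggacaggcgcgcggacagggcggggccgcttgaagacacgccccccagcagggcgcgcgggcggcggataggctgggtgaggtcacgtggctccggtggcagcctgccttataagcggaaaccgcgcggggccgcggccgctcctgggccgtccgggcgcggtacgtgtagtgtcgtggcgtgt
Lss: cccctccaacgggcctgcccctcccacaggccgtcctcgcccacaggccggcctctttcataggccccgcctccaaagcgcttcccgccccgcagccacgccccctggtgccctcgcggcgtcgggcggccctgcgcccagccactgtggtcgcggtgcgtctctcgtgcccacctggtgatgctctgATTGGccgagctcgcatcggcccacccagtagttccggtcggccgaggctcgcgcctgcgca
Cyp51: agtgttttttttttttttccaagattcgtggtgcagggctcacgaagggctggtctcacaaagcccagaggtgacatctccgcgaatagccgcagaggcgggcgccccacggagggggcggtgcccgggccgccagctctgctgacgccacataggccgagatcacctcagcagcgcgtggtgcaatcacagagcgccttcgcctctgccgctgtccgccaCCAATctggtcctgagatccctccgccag

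All 5 windows held an NF-Y box and a Sp1 box (GGGCGG on either strand), which 33.9% and 32.7% of the 32851 RefSeq promoter windows of the same length hold. The *Hmgcs1* window was the one of the 5 with an SRE match, 137 to 129 bases before the start, and 3 NF-Y boxes; 1.05% of all windows hold an SRE match and 0.326% hold it with an NF-Y box. The *Idi1* window held a pair of NF-Y boxes, the nearer 14 to 10 bases before the start, and the *Cyp51* window held its box 29 to 25 bases before the start. The *Insig1* window held an E-box (CACGTG) 101 to 96 bases before the start, as do 6.02% of all windows. Among 29 other listed cholesterol genes with a window, 19 held an NF-Y box, 21 a Sp1 box and 0 these SRE letters. Some of these genes have several windows, and a gene was counted if any of them held the letters. These counts are therefore not comparable with the shares of single windows. A match describes letters only, and a missing match says nothing about binding.

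Over all tagged cells of each culture, the summed level of the 8 members was higher in COL1 and STIFF than in MATR and SOFT by 1.15- to 1.17-fold in the cross-channel pairs, and the members differed in how much of that they carried. The summed level was 281 CPM in COL1 and 287 in STIFF, and 239.9 in MATR and 248 in SOFT. COL1 over MATR was 1.17-fold (interval 1.14 to 1.21) and STIFF over SOFT 1.15-fold (1.12 to 1.18). Within a channel the cultures lay closer: COL1 over STIFF was 0.982-fold (0.954 to 1.01) and MATR over SOFT 0.967-fold (0.940 to 0.994).

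*Cyp51*, the lanosterol demethylase of the late steps, stood at 25.0 CPM in COL1 and 27.1 in STIFF, and 17.9 in MATR and 19.6 in SOFT. Both COL1 and STIFF lay above both other cultures, with 1.40-fold (1.25 to 1.56) for COL1 over MATR and 1.38-fold (1.26 to 1.51) for STIFF over SOFT. *Idi1*, which interconverts the isoprenoid units, had the same arrangement at 24.5, 25.4, 18.6 and 18.7 CPM in COL1, STIFF, MATR and SOFT. Its ratios were 1.32 (1.18 to 1.47) for COL1 over MATR and 1.36 (1.24 to 1.49) for STIFF over SOFT. *Hmgcs1*, the HMG-CoA synthase of the early steps, followed at 30.4, 29.3, 25.6 and 24.2 CPM in the same order of cultures. *Fdps*, which joins isoprenoid units to farnesyl diphosphate, stood at 108, 113, 95.4 and 98.2 CPM. All these values pool every tagged cell of a culture, and the mix of cell types differed between cultures. For *Cyp51*, the levels within classes of cells, given below, did not all follow the pooled arrangement.

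The squalene enzymes *Fdft1* and *Sqle* had the smallest ratios of the members in the cross-channel pairs. *Fdft1*, squalene synthase, stood at 44.3 CPM in COL1 and 46.0 in STIFF, and 41.8 in MATR and 43.1 in SOFT. *Sqle*, the squalene epoxidase and a rate-limiting step, stood at 32.0, 31.0, 29.3 and 31.1 CPM, and *Lss*, lanosterol synthase, at 6.39, 5.93, 5.27 and 4.97 CPM. The interval of the ratio included 1 for *Sqle* and *Lss* in all 4 comparisons, and for *Fdft1* in all except STIFF over SOFT, at 1.07-fold (1.001 to 1.14). *Lss* rested on 150 to 312 UMIs per culture, and its ratio was 1.21 (0.981 to 1.496) for COL1 over MATR, larger than the 1.13 of *Fdps*. *Insig1*, the feedback regulator, was the member that also differed within a channel: it stood at 10.7 CPM in COL1 and 9.12 in STIFF, and 6.11 in MATR and 8.14 in SOFT. MATR was the lowest of the cultures, 0.751-fold (0.635 to 0.888) of SOFT, and COL1 over MATR was 1.74-fold (1.46 to 2.08). These values pool all cell types, whose mix differed between cultures, and within some classes of cells, given below, MATR lay above SOFT.

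A call of at least 1.5-fold, on log2(CPM + 10) and over genes of at least 5 CPM in either culture, gave 0 of 8 members in each comparison. Over all genes the call took 2.98% for COL1 over MATR, 2.36% for STIFF over SOFT, 1.5% for COL1 over STIFF and 2.69% for MATR over SOFT. The pseudocount holds *Insig1* below the call, at 0.36 on that log2 scale for COL1 over MATR. Members whose interval excluded a ratio of 1 numbered 5 higher for COL1 over MATR, 5 higher for STIFF over SOFT, 0 for COL1 over STIFF and 1 lower for MATR over SOFT. Of all genes, 30.1% had intervals above and 21% below 1 for COL1 over MATR, and 32.1% above and 23.1% below for STIFF over SOFT. For COL1 over STIFF 20.1% lay above and 25.3% below 1, and for MATR over SOFT 21.4% above and 28.6% below. With hashtags ignored, all kept cells of the COL1 and STIFF pool against those of the MATR and SOFT pool gave 1.40-fold for *Cyp51*, 1.35-fold for *Insig1*, 1.31-fold for *Idi1*, 1.20-fold for *Hmgcs1* and 1.15-fold for *Fdps*. In the same pools *Lss* was at 1.09-fold, *Fdft1* at 1.04-fold and *Sqle* at 1.01-fold.

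**Figure D1:**
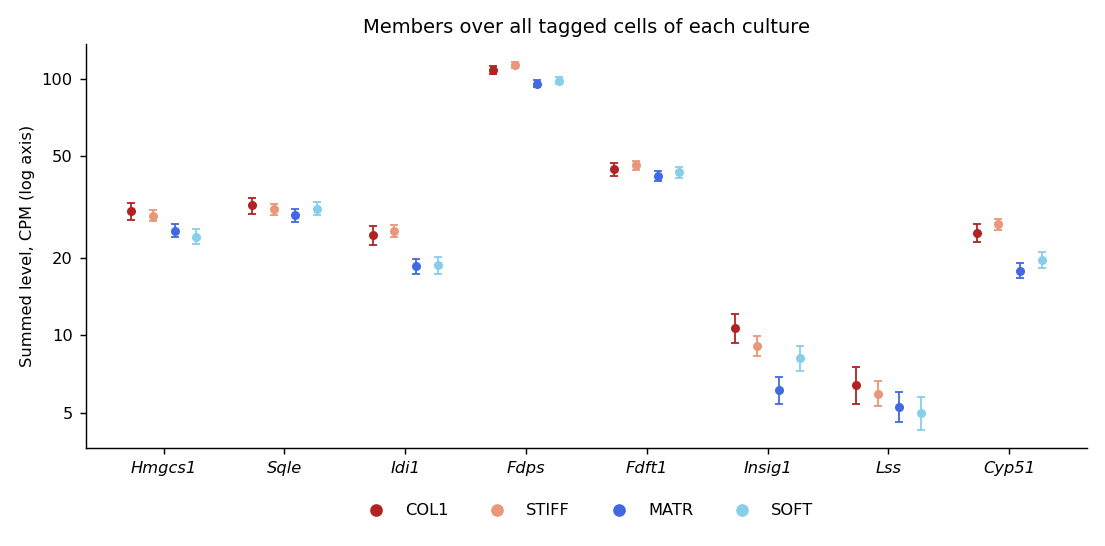
Level of each member in CPM on a log axis, over all tagged cells of the COL1, STIFF, MATR and SOFT cultures; points are levels of summed counts and bars exact 95% intervals of counting error. *Cyp51* and *Idi1* lie higher in both COL1 and STIFF, at 24.5 to 27.1 CPM, than in MATR and SOFT, at 17.9 to 19.6 CPM, while *Sqle* stays between 29.3 and 32.0 CPM.

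Cell classes were rebuilt from marker lists, since the deposited files held no cell annotation. Fibroblast-like cells (489 tagged cells) held *Col1a1* at 5091 CPM against 25.0 CPM in all other tagged cells, and *Pdgfra* at 84.8 against 1.48 CPM. Luminal cells with hormone receptor markers, called HR-positive-like (3877 cells), held *Prlr* at 2432 against 631 CPM and *Pgr*, the progesterone receptor, at 240.1 against 54.2 CPM; *Esr1*, the oestrogen receptor, was low at 32.8 against 9.82 CPM, *Tnfsf11* was at 0, and cornified-envelope and antimicrobial genes such as *Sprr2f*, *Sprr1a* and *Reg3b* were among their leading genes. Luminal cells without them, called HR-negative-like (901 cells), held *Elf5* at 334 against 62.6 CPM and *Csn3* at 7823 against 1505 CPM, while *Aldh1a3* was not higher there. Basal-like cells (623) held *Krt5* at 682 against 7.95 CPM. Immune-like cells (827) held the macrophage genes *Lyz2* and *C1qa*, and the lymphocyte markers *Cd3e* and *Nkg7* were at 0 there. Adipocyte markers summed to at most 1.63 CPM in any class, although the tissue was the fat pad.

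Cell mix differed between the cultures. Fibroblast-like cells made up 10.1% of tagged cells in COL1 and 6.08% in STIFF, and 4.46% in MATR and 4.02% in SOFT, and HR-positive-like cells 33.7%, 44.0%, 53.5% and 52.7%. With the classes weighted equally, the summed ratios on the log2 scale were 0.11 for COL1 over MATR (0.23 as pooled), 0.12 for STIFF over SOFT (0.21), −0.20 for COL1 over STIFF (−0.03) and −0.18 for MATR over SOFT (−0.05). Clusters that no single marker list named held 20.2% of tagged cells in COL1 and 24.9% in STIFF, and 14.2% in MATR and 14.99% in SOFT, and without them MATR over SOFT was 0.075.

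Clusters were formed on all variable genes, so levels by class describe the clusters and are not tested. Of the members, *Cyp51* was among the 2000 variable genes that formed the clusters. Among the classes, fibroblast-like cells held the highest summed level of the members and HR-negative-like or immune-like cells the lowest in every culture. The summed level was 462 CPM in COL1 and 576 in STIFF, and 415 in MATR and 606 in SOFT in fibroblast-like cells, and 159.6, 119, 149 and 126 CPM in HR-negative-like cells. HR-positive-like cells stood between them at 373, 326, 312 and 276 CPM. That class pools 3 clusters, and its cluster 6 lay above fibroblast-like cells in COL1, at 479 CPM, and in MATR, at 513 CPM. In STIFF the unnamed cluster 9 lay above them at 596 CPM. The intervals overlapped in COL1 and STIFF but not in MATR. Basal-like cells had 152, 238, 183 and 198 CPM, and immune-like cells 129, 206, 125 and 142 CPM. Fibroblast-like over HR-negative-like cells was thus 2.78- to 4.83-fold across the cultures and HR-positive-like over HR-negative-like cells 2.09- to 2.73-fold.

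*Cyp51* had the widest spread between classes. Fibroblast-like cells held 92.9 CPM in COL1 and 125 in STIFF, and 92.3 in MATR and 129 in SOFT. HR-negative-like cells held 9.22, 7.18, 7.05 and 6.55 CPM, and no culture overlapped between these classes. The ratio was 10.1- to 19.6-fold, with counting intervals between 6.94 and 27.9. HR-positive-like cells were at 23.7, 19.5, 20.2 and 13.2 CPM, basal-like cells at 10.5, 27.5, 18.0 and 11.8 and immune-like cells at 15.7, 20.6, 14.9 and 16.3. The order of these middle classes was not the same from culture to culture, and in each culture some of their neighbouring intervals overlapped. Between COL1 and MATR, *Cyp51* was nearly level in fibroblast-like cells, lower in COL1 in basal-like cells and higher in COL1 in the other classes. The COL1 and MATR intervals overlapped in every class. The unnamed cluster 4 held 14.8 CPM in COL1 and 8.63 in MATR, with separate intervals. For STIFF against SOFT, fibroblast-like cells were not higher in STIFF, while the other classes were. The part of the cell mix in the pooled ratios was not tested.

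*Hmgcs1* was also highest in fibroblast-like cells, at 65.7 CPM in COL1 and 68.0 in STIFF, and 49.2 in MATR and 69.96 in SOFT, against 10.1, 9.33, 13.4 and 11.5 CPM in HR-negative-like cells. HR-positive-like cells were second except in STIFF, with 41.3, 32.1, 32.8 and 25.9 CPM, and basal-like cells had 26.7, 32.5, 30.6 and 19.4 CPM. The intervals of HR-positive-like and basal-like cells overlapped in STIFF, MATR and SOFT. *Fdps* had 172 CPM in COL1 and 221 in STIFF, and 156 in MATR and 230.1 in SOFT in fibroblast-like cells, followed in every culture by HR-positive-like cells at 146, 130.4, 127 and 109.8 CPM. Within the latter class, cluster 6 stood above fibroblast-like cells for *Fdps* in COL1, at 200.6 CPM with overlapping intervals, and in MATR, at 232.7 CPM. In HR-negative-like cells *Fdps* had 61.7, 44.1, 58.0 and 44.3 CPM, so that fibroblast-like over HR-negative-like cells was 2.69- to 5.19-fold. *Idi1* had 34.1, 44.9, 32.0 and 52.2 CPM in fibroblast-like cells, 28.7, 23.8, 20.2 and 15.4 in HR-positive-like cells and 22.5, 15.3, 15.3 and 12.8 in HR-negative-like cells. In COL1 its fibroblast-like and HR-positive-like intervals overlapped, and the step to HR-negative-like cells was small in every culture, 1.21- to 1.56-fold for HR-positive-like over HR-negative-like cells.

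The squalene enzymes had another order, with HR-positive-like cells on top. *Sqle* stood at 56.1 CPM in COL1 and 49.7 in STIFF, and 45.5 in MATR and 46.6 in SOFT in HR-positive-like cells. Fibroblast-like cells had 26.4, 32.5, 22.8 and 44.8 CPM and HR-negative-like cells 11.8, 10.8, 15.1 and 13.3 CPM. The HR-positive-like over HR-negative-like ratio of *Sqle* was 3.02- to 4.75-fold, the largest of the 8 members for that pair. *Fdft1* had 67.9, 60.7, 58.2 and 58.7 CPM in HR-positive-like cells, 37.7, 49.1, 35.5 and 46.8 in fibroblast-like cells and 23.3, 20.6, 25.9 and 24.2 in HR-negative-like cells. In SOFT the HR-positive-like and fibroblast-like intervals overlapped for both genes. Single clusters of the HR-positive-like class did not all keep this order. In SOFT, *Sqle* had 36.2 CPM in cluster 1 and 28.1 in cluster 5, below fibroblast-like cells. In STIFF, *Fdft1* had 37.1 CPM in cluster 5, below fibroblast-like cells, and 63.1 CPM in the unnamed cluster 9, above the HR-positive-like class. In every other case the clusters of the class lay above fibroblast-like cells. Across the 20 class-by-culture profiles *Sqle* and *Fdft1* had a Pearson r of 0.97 on log2(CPM + 10), the highest of the 28 pairs of members, whose median was 0.56; profiles of 1 culture share library and depth, and no p is given.

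*Insig1* departed from the squalene enzymes. It was highest in fibroblast-like cells, at 28.0 CPM in COL1 and 28.9 in STIFF, and 21.3 in MATR and 24.1 in SOFT, and lowest or second lowest in HR-positive-like cells, at 3.92, 3.82, 2.97 and 1.76 CPM. Fibroblast-like over HR-positive-like cells was 7.14- to 13.7-fold. HR-positive-like cells thus held high levels of the squalene enzymes beside low levels of this regulator, and the r of *Insig1* over the 20 profiles was −0.23 with *Sqle* and −0.22 with *Fdft1*, beside 0.71 with *Cyp51* and 0.58 with *Idi1*. Immune-like cells held *Insig1* at 13.0, 17.8, 9.69 and 17.1 CPM and HR-negative-like cells at 14.4, 6.82, 8.505 and 7.95 CPM. *Insig2*, its paralogue, had the reverse order for this pair of classes, with 174, 156, 184 and 156 CPM in HR-positive-like cells against 80.8, 67.4, 68.5 and 73.9 in fibroblast-like cells, while fibroblast-like over HR-negative-like cells was 1.27- to 1.53-fold, the same direction as for *Insig1*. In basal-like cells *Insig1* had 3.23, 5.93, 5.72 and 3.38 CPM, on 4 to 19 UMIs. *Insig1* was thus higher in MATR than in SOFT in HR-positive-like, HR-negative-like and basal-like cells, and lower in fibroblast-like and immune-like cells. COL1 lay above MATR in every class except basal-like cells. The part of the cell mix in the pooled *Insig1* ratios was not tested. *Lss* had 2.68 to 9.36 CPM over all profiles and was lowest in immune-like cells in every culture. The intervals of all neighbouring classes overlapped, and the order of the other classes differed between cultures. In SOFT its level in fibroblast-like cells, 9.36 CPM (5.64 to 14.6), lay clear of that in immune-like cells, 2.85 CPM (1.56 to 4.79).

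**Figure D2:**
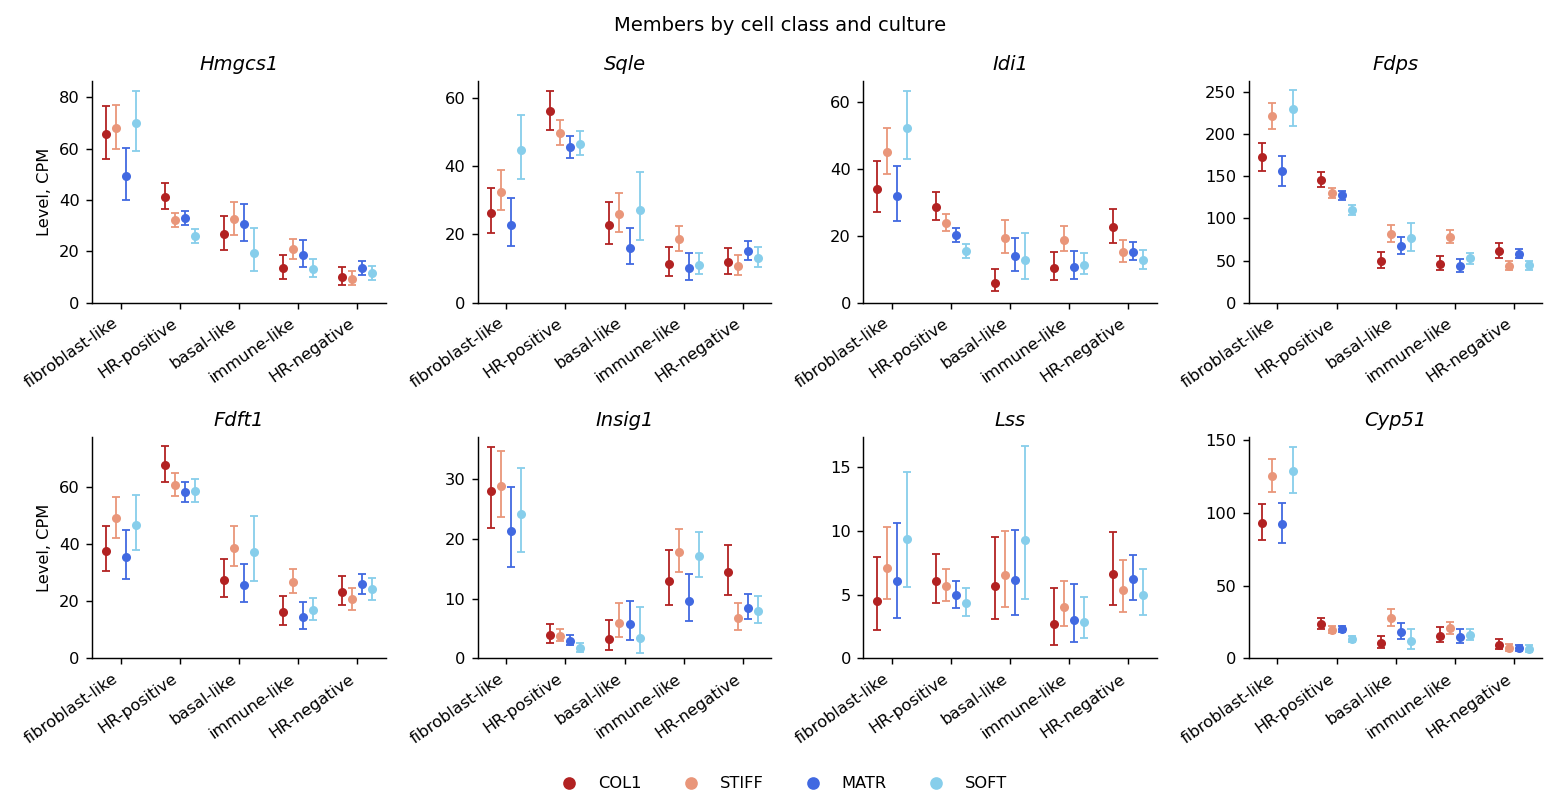
Level in CPM of each member in 5 cell classes, with 1 point per culture (COL1, STIFF, MATR, SOFT) and exact 95% intervals of counting error. *Cyp51* in fibroblast-like cells, at 92.3 to 129 CPM, stands clear of all other classes, *Sqle* and *Fdft1* are highest in HR-positive-like cells, and *Insig1* is low there at 1.76 to 3.92 CPM.

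The classes depend on how cells were clustered. For *Hmgcs1*, *Sqle*, *Idi1*, *Fdps*, *Fdft1* and *Cyp51* the ratios to HR-negative-like cells were smaller under most other clusterings, and their direction held except for *Idi1*. For *Cyp51*, fibroblast-like over HR-negative-like cells was 3.94 on the log2 scale over all tagged cells. It was 3.05 with the listed lipid genes left out of the clustering, 2.89 and 3.54 with coarser and finer clusters, and 3.45 with hashtags ignored. HR-positive-like over HR-negative-like cells was 1.88 for *Sqle*, with 1.16 to 1.89 under the same alternatives. For *Idi1* that ratio was 0.42, and it was −0.088 without the lipid genes and −0.37 with coarser clusters, so no direction is given for it.

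Of the variance of log2(CPM + 10) over the 20 profiles, the share between classes was 95.3% for *Cyp51*, 92.8% for *Hmgcs1*, 91.6% for *Insig1*, 90.6% for *Fdps*, 89.6% for *Fdft1*, 88.8% for *Sqle*, 76.8% for *Idi1* and 63.9% for *Lss*. For every member this share was larger than the share between cultures within classes. The classes were formed from gene expression and the share was not computed over all genes, so it is not read as a trait of the members. The members' r with the mean of the other members was 0.98 for *Fdps*, 0.92 for *Hmgcs1*, 0.89 for *Idi1*, 0.86 for *Cyp51*, 0.65 for *Fdft1*, 0.63 for *Sqle*, 0.43 for *Lss* and 0.35 for *Insig1*.

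Cultures were then compared within each class where both cultures held at least 100 cells of it. In HR-positive-like cells the summed level was highest in COL1 and lowest in SOFT. COL1 over MATR was 1.20-fold (1.14 to 1.25), STIFF over SOFT 1.18-fold (1.13 to 1.23), COL1 over STIFF 1.15-fold (1.09 to 1.20) and MATR over SOFT 1.13-fold (1.09 to 1.18). *Idi1* was 1.55-fold (1.31 to 1.83) and *Cyp51* 1.47-fold (1.23 to 1.78) for STIFF over SOFT, and *Cyp51* was 1.52-fold (1.28 to 1.82) for MATR over SOFT. *Insig1* had 3.82 CPM in STIFF and 1.76 CPM in SOFT, 2.17-fold (1.35 to 3.59). No member passed the 1.5-fold call on the log2(CPM + 10) scale in this class, where 1.44%, 3.12%, 1.79% and 2.32% of all genes did in the 4 comparisons in the same order.

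The HR-positive-like class held 3 clusters, and their mix differed between cultures. Cluster 5, the lowest of them at 206 CPM, held 201, 136, 700 and 442 cells in COL1, STIFF, MATR and SOFT, cluster 6, at 408 CPM, held 183, 258, 173 and 472, and cluster 1, at 343 CPM, held 142, 685, 376 and 109. With the 3 clusters weighted equally, an alternative chosen after seeing the data, COL1 and MATR both stood at 371 CPM, a log2 ratio of 0.00 where the pooled class gave 0.26. STIFF over SOFT was then 0.14 (0.24 pooled), COL1 over STIFF 0.29 (0.20) and MATR over SOFT 0.43 (0.18). Within cluster 6 the level was 479 CPM in COL1 and 406 in STIFF, and 513 in MATR and 345 in SOFT, and within cluster 1 it was 363, 319, 392 and 304 CPM. Cluster 5 had 272, 189, 209 and 180.3 CPM. In all 3 clusters COL1 and MATR lay above STIFF and SOFT, with MATR above COL1 in clusters 6 and 1 and COL1 above MATR in cluster 5.

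**Figure D3:**
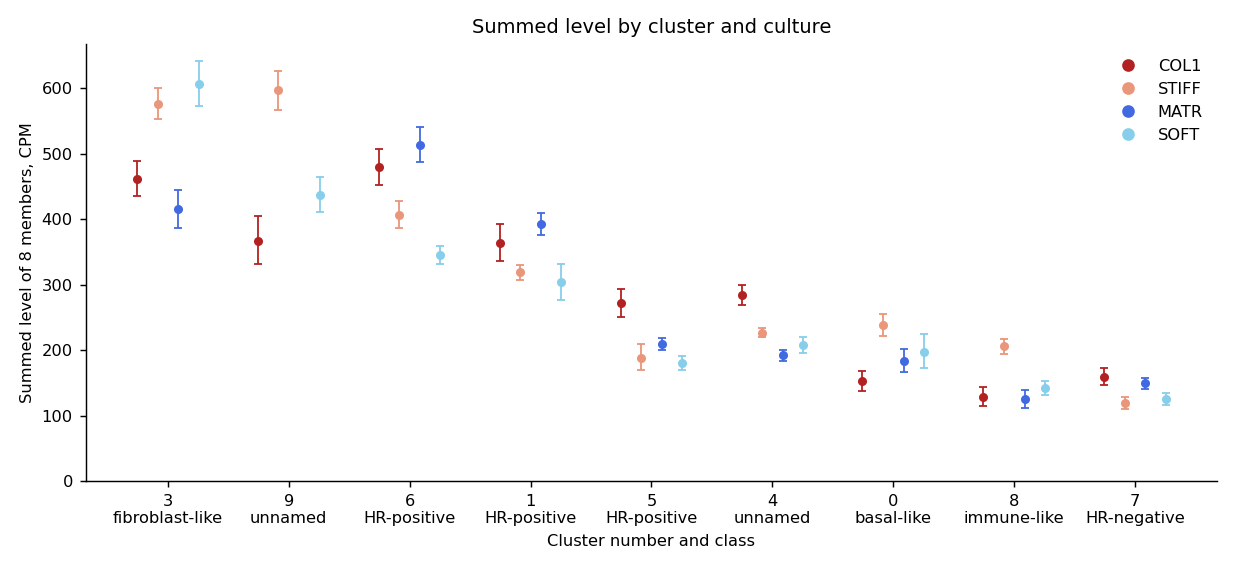
Summed level of the 8 members in CPM by cluster number and class, 1 point per culture with at least 50 cells of the cluster, bars exact 95% intervals of counting error. Fibroblast-like cells of STIFF and SOFT, at 576 and 606 CPM, and cells of the unnamed cluster 9 in STIFF, at 596 CPM, are the highest points, and the HR-positive-like clusters 6, 1 and 5 are spread from 513 to 180.3 CPM.

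Fibroblast-like cells had lower levels in COL1 than in STIFF. The summed ratio was 0.801 (0.745 to 0.861), with *Cyp51* at 0.744 (0.633 to 0.873) and *Fdps* at 0.781 (0.693 to 0.878). With the looser hashtag rules, the first planned and the second chosen after seeing the data, the summed log2 ratio was −0.20 and −0.15 in place of −0.32. The SOFT culture held 78 of these cells and was not compared. COL1 over MATR was 1.11-fold (1.02 to 1.22), with *Hmgcs1* at 1.34-fold (1.03 to 1.74). No member passed the 1.5-fold call, against 5.08% of genes for COL1 over STIFF and 4.27% for COL1 over MATR. Median depth of these cells was 13888.5 UMIs in COL1, 20496 in STIFF and 17241 in MATR. All 8 fibroblast markers were detected, with summed levels of 14555, 13558 and 19569 CPM in these cultures, pericyte markers summed to 595, 417 and 768 CPM, and HR-negative markers to 2784, 7579 and 4669 CPM. HR-positive markers summed to 702, 1381 and 782 CPM and cell cycle markers to 306, 478 and 381 CPM, and 6.33%, 14.1% and 6.73% of the cells had doublet scores among the highest. Basal markers summed to 3678 CPM in COL1, 3174 in STIFF and 2296 in MATR. For COL1 over STIFF, 9 of 10 measured HR-negative markers, 6 of 7 HR-positive and 4 of 12 cell cycle markers were lower past 1.5-fold. For COL1 over MATR, 5 of 9 measured basal markers were higher and 1 lower past 1.5-fold, and 5 of 10 HR-negative markers were lower. The part of these differences in the ratios was not tested.

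Basal-like cells had lower levels of several members in COL1. *Idi1* stood at 6.06 CPM in COL1 and 19.4 in STIFF, 0.313-fold (0.165 to 0.557), and *Cyp51* at 10.5 and 27.5 CPM, 0.382-fold (0.237 to 0.598). *Fdps* was at 50.1 CPM in COL1 and 81.8 in STIFF, 0.613-fold (0.491 to 0.761). These 3 of 8 members passed the 1.5-fold call, all lower in COL1, against 3.24% of all genes, and the summed ratio was 0.640 (0.564 to 0.724). Against MATR the COL1 cells were at 0.831-fold (0.722 to 0.955) summed, with 0 of 8 members past the call and 2.08% of all genes past it. COL1 basal-like cells were shallower, with a median of 8130 UMIs against 17379 in STIFF. Cell cycle markers summed to 138 CPM in COL1 and 197 in STIFF, HR-positive markers to 916 and 1838, and basal markers to 8126 and 10166. HR-negative markers went the other way, with 7064 CPM in COL1 and 4980 in STIFF. Doublet scores among the highest were held by 8.29% and 21.6% of the cells. The part of these differences in the ratios was not tested. Without the cells of highest doublet score the summed log2 ratio was −0.71, where all cells gave −0.64, *Idi1* was −1.81 (−1.68), *Cyp51* −1.72 (−1.39) and *Fdps* −0.84 (−0.71).

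Immune-like cells of the STIFF culture stood above the other cultures. The summed ratio was 1.45-fold (1.32 to 1.60) for STIFF over SOFT and 0.627-fold (0.553 to 0.708) for COL1 over STIFF. *Fdps* had 46.3 CPM in COL1 and 78.2 in STIFF, 0.592-fold (0.480 to 0.726), and was the 1 of 8 members past the 1.5-fold call there, against 4.98% of all genes. For STIFF over SOFT 5 of 8 members had intervals above 1, as did 33.8% of all genes, and 0 members passed the call, against 9.6% of all genes. The median of all genes was itself 0.14 on the log2(CPM + 10) scale there. COL1 over MATR was 1.03-fold (0.883 to 1.20) and MATR over SOFT 0.884-fold (0.774 to 1.01), with 0 members past the call against 4.36% and 5.13% of all genes. *Insig1* had 9.69 CPM in MATR and 17.1 in SOFT, 0.566-fold (0.350 to 0.888).

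Luminal markers were also highest in the STIFF immune-like cells. The HR-positive list summed to 1104 CPM in COL1 and 2729 in STIFF, and 1708 in MATR and 876 in SOFT in immune-like cells, and the HR-negative list to 5147, 7786, 4679 and 3797 CPM. In immune-like cells without a single *Krt8* or *Krt18* UMI, a subset chosen after seeing the data that held 24, 34, 37 and 52 cells in COL1, STIFF, MATR and SOFT, the summed level was 67.2, 182, 86.8 and 125 CPM. The log2 ratios there were 0.54 for STIFF over SOFT and −1.44 for COL1 over STIFF, without intervals. Levels of the luminal lists and the depth of this small subset were not measured, and its rule can favour cells of low depth. The part of luminal transcripts in the ratios of the class was not tested.

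HR-negative-like cells had a higher summed level in COL1 than in STIFF, 1.34-fold (1.19 to 1.497). Their median depth was 15297 UMIs in COL1 and 26274 in STIFF, and the part of depth in the ratio was not tested. *Insig1* stood at 14.4 CPM in COL1 and 6.82 in STIFF, 2.11-fold (1.36 to 3.31), with *Idi1* at 1.47-fold (1.07 to 2.03) and *Fdps* at 1.40-fold (1.16 to 1.68). MATR over SOFT was 1.19-fold (1.09 to 1.30), COL1 over MATR 1.07-fold (0.965 to 1.18) and STIFF over SOFT 0.952-fold (0.858 to 1.06). No member passed the 1.5-fold call, which took 0.63% of genes for COL1 over STIFF, 1.26% for MATR over SOFT, 0.99% for COL1 over MATR and 2.75% for STIFF over SOFT. With cells given to the hashtag that was clearly stronger relative to its background, and the other cells left out, COL1 over STIFF was 0.20 on the log2 scale (0.42 by the stricter assignment).

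**Figure D4:**
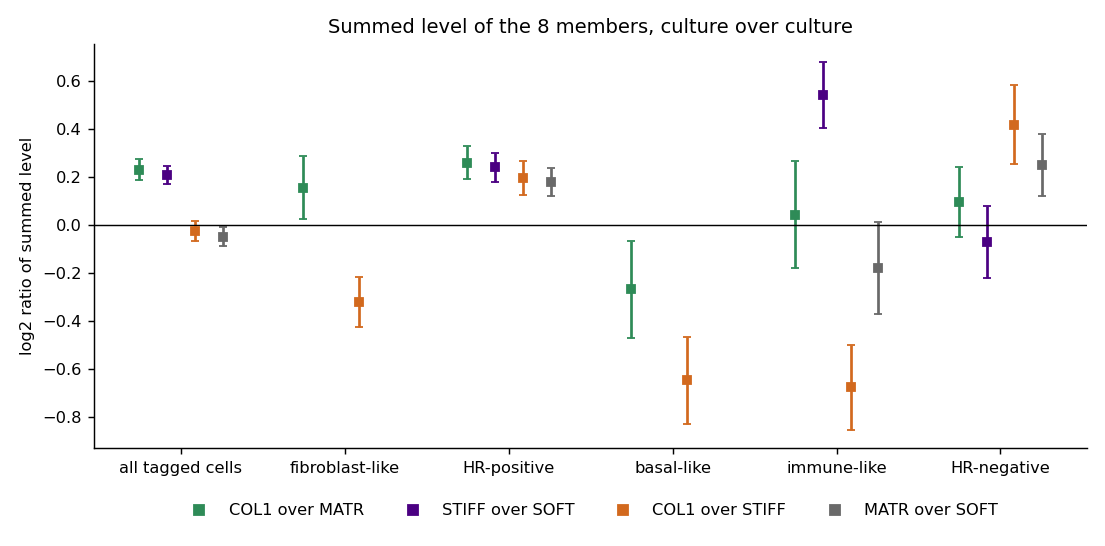
Log2 ratio of the summed level of the 8 members between cultures, over all tagged cells and within each class with at least 100 cells in both cultures, bars exact 95% intervals of counting error. COL1 over STIFF lies at −0.64 in basal-like and −0.67 in immune-like cells and at 0.42 in HR-negative-like cells, while all tagged cells give −0.03.

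The rest of the sterol path was taken from fixed lists. Of 14 other synthesis enzymes, 0 passed the 1.5-fold call in any of the 4 comparisons over all tagged cells. Their median log2(CPM + 10) difference was 0.07 for COL1 over MATR, 0.13 for STIFF over SOFT, −0.04 for COL1 over STIFF and 0.03 for MATR over SOFT. The members' medians were 0.17, 0.14, 0.00 and −0.04 in the same order, and those of all genes 0.02, 0.02, −0.02 and −0.02. *Sc5d*, a late desaturase, and *Ebp*, a sterol isomerase, marked the ends of this list for COL1 over MATR, at 0.33 and −0.29.

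Of 6 regulators of the SREBP path 0 passed the call in any comparison over all tagged cells. *Srebf2*, which encodes SREBP2, stood at 38.3 CPM in COL1 and 38.9 in STIFF, and 32.9 in MATR and 32.6 in SOFT, and *Srebf1*, which encodes SREBP1, at 178, 204, 207 and 167 CPM. *Lipa*, the lysosomal lipase that frees cholesterol from its esters, passed the call for STIFF over SOFT at 0.59, with 139 CPM in STIFF and 88.5 in SOFT, the 1 of 9 measured genes of the uptake and trafficking list to do so. In storage and efflux, 2 of 6 measured genes passed for COL1 over MATR. They were *Apoe*, an apolipoprotein abundant in macrophages, at 0.77 and *Soat1*, the cholesterol esterifying enzyme, at 0.67.

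*Apoe* also passed for COL1 over STIFF, at 0.61, and *Ch25h*, which makes an oxysterol, was lower in MATR than in SOFT, at −0.73. These values pool all classes, whose shares differed between the cultures. In immune-like cells *Apoe* stood at 42132 CPM in COL1 and 28909 in STIFF, and 45399 in MATR and 29626 in SOFT, so within this class MATR was not below COL1. *Ch25h* had 32.9, 36.9, 28.7 and 81.7 CPM in immune-like cells, again with SOFT highest. *Soat1* had 103, 59.0, 66.4 and 75.9 CPM in fibroblast-like cells, highest in COL1.

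By class, *Nsdhl*, a sterol dehydrogenase of the late steps, was arranged like the mean of the members, whereas the SREBP1 side was not. *Nsdhl* led the genes ranked by likeness to that mean (below), so its order follows from that choice. The members themselves did not share a single order of classes. *Nsdhl* had 27.6 CPM in COL1 and 31.5 in STIFF, and 27.9 in MATR and 30.5 in SOFT in fibroblast-like cells, 24.1, 23.6, 22.2 and 21.3 in HR-positive-like cells and 10.9, 10.6, 11.3 and 9.51 in HR-negative-like cells. *Srebf1* ran the other way, with 58.0, 109.9, 92.8 and 58.1 CPM in fibroblast-like cells and 357, 387, 409.9 and 372 in HR-negative-like cells, 0.156- to 0.284-fold. *Scd1*, a fatty acid desaturase of the SREBP1 programme, reached 2982, 3320, 3462 and 4244 CPM in HR-negative-like cells, where the summed members were lowest or near it. *Lipa* was also higher in HR-negative-like cells, at 338, 446, 396 and 238 CPM, with 58.0, 99.7, 98.9 and 76.9 CPM in fibroblast-like cells. *Srebf2* itself differed little, 1.10- to 1.52-fold for fibroblast-like over HR-negative-like cells.

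**Figure D5:**
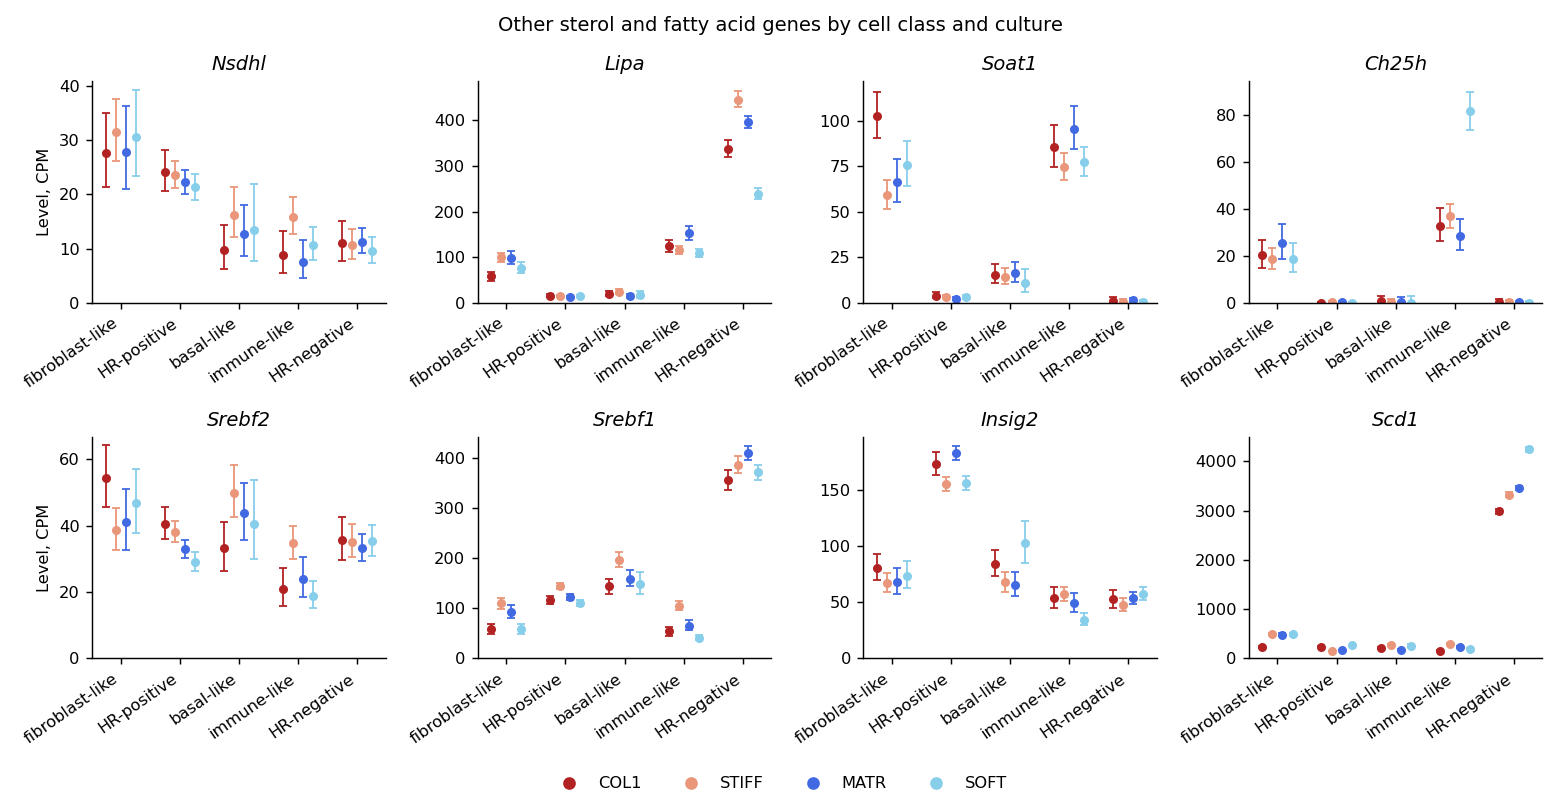
Level in CPM of 8 other sterol and fatty acid genes in 5 cell classes, 1 point per culture (COL1, STIFF, MATR, SOFT), bars exact 95% intervals of counting error. *Nsdhl* is highest in fibroblast-like cells, at 27.6 to 31.5 CPM, and *Lipa* at 238 to 446 CPM, *Srebf1* at 357 to 409.9 CPM and *Scd1* at 2982 to 4244 CPM are highest in HR-negative-like cells.

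Among 8167 genes of at least 20 CPM in some profile, those among the 10 most like the centred mean of the members over the 20 profiles included *Nsdhl* (r 0.96), *Srprb* (0.96), *Mtch1* (0.95), *Ost4* (0.95), *Ube2s* (0.94), *Fam104a*, *Cnep1r1*, *Uck2* and *Mtx2* (0.93 each). *Nsdhl* is a sterol enzyme that the members' rule did not name. *Srebf2* had r 0.61, *Insig2* 0.40, *Scd1* −0.27 and *Srebf1* −0.40. With each gene centred within its class, which leaves the differences between cultures, *Nsdhl* led with r 0.84. *Lmo7* (0.81), *Idh3a* (0.79), *Rrm2* (0.78), *Ccdc191* and *Nop56* (0.77), and *Uchl3*, *Dnajb2* and *Hspa4* (0.76) were also among the 10 highest. Profiles of 1 culture share their library and depth, so these values are descriptions.

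Clusters without a name also carried the members. Cluster 9, 295 tagged cells led by *Krt17*, *Ankrd1* and *Tnc*, had a summed level of 481 CPM, near the 524 CPM of the fibroblast-like cluster. It stood at 367 CPM in COL1, 596 in STIFF and 438 in SOFT, and MATR held too few of its cells. Cluster 4, 1176 cells with markers of both luminal classes a median of 27634 UMIs and the highest median doublet score of the clusters, 0.121 against 0.0288 to 0.0817, had 221.5 CPM, with 284 in COL1 and 227 in STIFF, and 192 in MATR and 208 in SOFT.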

How the data were processed

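Gene and hashtag counts were deposited as whole-number UMI count matrices; per the submitters' processing notes they came from Cell Ranger 5.0.0, Seurat 4.2.0 and build mm10. Each pool was deposited in 2 entries with equal gene counts, used once. Here 9568 of 10615 and 7945 of 8767 barcodes were kept (at least 1000 UMIs and 500 genes, at most 15% mitochondrial UMIs). Hashtags were called with HTODemux at quantile 0.99 (Seurat 5.3.0). Scrublet marked 0 cells at its automatic threshold, so no doublets were removed by it. Its scores served only as a ranking that was not checked, and the 424 and 365 cells with the highest scores were left out in an alternative. Clusters came from 2000 variable genes, 30 components, 15 neighbours and Leiden resolution 0.5 (scanpy 1.11.5), and were named from marker lists; a cluster whose second list came close to its first, or of low depth, stayed unnamed. UMIs were summed per class and culture. Ratios carry exact 95% conditional binomial intervals, levels exact Poisson intervals, both for counting error only. The 1.5-fold call uses log2(CPM + 10). Counts were also simulated from the Poisson model that the intervals assume, with no spread between cultures, which checks the calculation only. In these counts the intervals covered the true ratio for 95.1% of genes for COL1 over MATR. For that comparison, 66.5% of 200 genes with true 2-fold changes were called, as were 0% of unchanged genes. TMM factors came from edgeR 4.0.16. The members and lists were chosen with earlier results of these data known. All 8 members are named; of other lists, the genes past the call, the extremes, *Srebf2* and *Srebf1*; genes like the members by the 10 highest correlations. Some genes of these rules are not reported here. Genes by class beyond these were picked after their values were seen.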

Additional observations from a re-analysis of the deposited data

Results flagged for a closer look

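Several members differed between cultures in opposite directions in different classes, with intervals that excluded 1 on both sides. These differences between classes were not tested, and each rests on 1 culture per condition. For COL1 over STIFF, *Idi1* was 0.56 on the log2 scale in HR-negative-like cells and −1.68 in basal-like cells, 2.23 apart. For COL1 over MATR the same gene was 0.55 in HR-negative-like and −1.20 in basal-like cells, 1.75 apart. *Fdps* was 0.48 in HR-negative-like and −0.76 in immune-like cells for COL1 over STIFF, 1.24 apart, and 0.20 in HR-positive-like and −0.43 in basal-like cells for COL1 over MATR, 0.62 apart. In clusters 1 and 6 of the HR-positive-like class *Fdps* was lower in COL1, at 138.9 and 200.6 CPM, against 169.0 and 232.7 CPM in MATR. *Hmgcs1* was 0.36 in HR-positive-like and −0.64 in immune-like cells for COL1 over STIFF, 1.001 apart. *Insig1* was 0.76 in HR-positive-like and −0.82 in immune-like cells for MATR over SOFT, 1.58 apart. The summed level was 0.42 in HR-negative-like and −0.67 in immune-like cells for COL1 over STIFF, 1.09 apart. The 0.42 was smaller with cells given to the relatively stronger hashtag, as given above. For COL1 over MATR the summed level was 0.26 in HR-positive-like and −0.27 in basal-like cells, 0.53 apart. With the 3 HR-positive-like clusters weighted equally that 0.26 was 0.00, and clusters 1 and 6 were lower in COL1, at 363 and 479 CPM, against 392 and 513 CPM in MATR.

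A hashtag that no condition names was listed in both pools. It had more than 3 counts in 762 barcodes kept from the channel of COL1 and STIFF and in 942 kept from the other channel, with a median of 0 and a highest count of 481 and 264.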

How the results depend on the processing

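No paired analysis was possible because each condition was 1 culture. For the summed level over all tagged cells, 22 of 36 alternative values stayed within the counting interval. For COL1 over MATR (log2 0.23) the others were 0.17 with TMM scaling, 0.14 with cells weighted equally, 0.11 with classes weighted equally and 0.12 without unnamed clusters. For STIFF over SOFT (0.21) they were 0.15 with TMM scaling, 0.26 with cells thinned to 2000 UMIs, 0.12 with classes weighted equally and 0.28 without unnamed clusters. For COL1 over STIFF (−0.03) they were −0.10 thinned, −0.20 with classes weighted equally and −0.081 without unnamed clusters. For MATR over SOFT (−0.05) they were −0.0068 with cells weighted equally, −0.18 with classes weighted equally and 0.075, the opposite sign, without unnamed clusters. Members past 1.5-fold numbered 1 instead of 0 for COL1 over MATR with a pseudocount of 1, with none, and in thinned cells; the gene was *Insig1*. The causes were not tested. Within and between classes, a change of sign was counted only where the main interval excluded 1. Within classes, alternatives were run only for the summed level and for members past the 1.5-fold call, and not for the other member ratios. There 53 of 69 alternative values stayed within the interval and 0 changed sign. Between classes 20 of 72 did, and 2 changed sign, both for *Idi1*, HR-positive-like over HR-negative-like (0.42): −0.088 without lipid genes in the clustering and −0.37 with Leiden resolution 0.3. Thinning left out 90, 12, 20 and 13 cells in COL1, STIFF, MATR and SOFT. Depth limits *Lss* and *Insig1*, whose levels were at most 6.39 and 10.7 CPM over a culture, and with 1 culture per condition no spread between cultures could be measured.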
